A study of Mus musculus with 6 samples.

Results

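The genes described here limit the amount of the cell's own DNA and RNA that reaches nucleic acid sensors, or edit or respond to that RNA. They are *Trex1*, *Samhd1*, *Rnaseh2a*, *Rnaseh2b*, *Rnaseh2c*, *Adar*, *Eif2ak2*, *Dnase2a* and *Pnpt1*. A locus was a member where one of its gene names, split at commas, was one of these symbols, which gave 9 loci of 51499 in the count table, and all 9 were among the 14499 loci that passed the filter on low counts.

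The study asked how mouse cells respond to loss of YME1L, a protease of the mitochondrial inner membrane. Mouse embryonic fibroblasts (MEFs), which are connective tissue cells cultured from embryos, received either a scrambled siRNA (Scr) or an siRNA directed at *Yme1l*, and RNA was collected after 72 h. Each group held 3 libraries from separate cultures, with 37260605 to 45205207 counts per library. Poly(A)-selected RNA was sequenced from stranded libraries. Both groups were wild type in genotype, and both had been transfected. The labels call the line 3T3 immortalized, whereas the methods describe immortalization with SV40 large T antigen and wild-type clones that carry loxP sites at *Yme1l*, expanded after exposure to Cre. These descriptions cannot be told apart from the counts, and all libraries come from a single kind of cultured line. The study's list of siRNAs was not used here, so the number of siRNAs behind the knockdown is not given.

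Cells carry enzymes that remove stray DNA, RNA-DNA hybrids and double-stranded RNA before sensors such as cGAS and MDA5 bind them. Inherited loss of TREX1, SAMHD1, the RNase H2 subunits or ADAR1 causes Aicardi-Goutières syndrome, an inflammatory disease with high interferon signalling. Several of these genes are themselves induced by interferon, so the same response can raise both the sensors and the proteins that restrain them.

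The targeted gene was measured first, as a check of the labels. *Yme1l1*, as the gene is named in the table, stood at 170, 171 and 171 CPM (counts scaled to library size with TMM factors) in Scr 1, 2 and 3 and at 31.6, 23.4 and 45.0 CPM in Yme1l siRNA 1, 2 and 3. The groups did not overlap, and Yme1l siRNA 3 kept the most *Yme1l1* of the treated libraries. The log2 fold change was −2.36 ± 0.20 (SE, n = 3 per group), with an adjusted p of 3.87e-05 by edgeR's quasi-likelihood test with Benjamini-Hochberg adjustment. *Ifnb1*, which encodes interferon beta, was near the detection limit in Scr, with 3, 1 and 0 counts, and reached 37, 60 and 11 counts in Yme1l siRNA 1, 2 and 3. *Isg15*, an interferon-induced ubiquitin-like modifier, stood at 68.6, 47.4 and 17.0 CPM in Scr and at 190, 194 and 88.4 CPM in Yme1l siRNA. Yme1l siRNA 3 was thus the lowest treated library for both, and the Scr libraries differed among themselves in *Isg15* by 4.04-fold.

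Of the 9 members, 7 were called higher in Yme1l siRNA and 0 lower, at an adjusted p under 0.05, and the 2 not called were *Rnaseh2c* and *Dnase2a*. The count of members lower was also 0 at an unadjusted p under 0.05 in edgeR and with DESeq2 or limma-voom. Over all 14499 loci tested, 58.0% were called in either direction, 28.4% higher and 29.6% lower. The groups did not overlap, with Yme1l siRNA above Scr, for 7 members, and for 31.9% of all loci tested. A rise of at least 1.5-fold was called for 3 members and for 15.7% of all loci, and a rise of at least 2-fold for 1 member and for 8.18% of all loci. The median log2 fold change of the members was 0.41, beside 0.01 over all loci tested. No set test was made, because the members were chosen with results of these data known. A permutation test of a single gene over 3 libraries against 3 cannot give an exact p under 0.1, so the calls rest on the spread that edgeR shares over all loci.

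**Figure D1:**
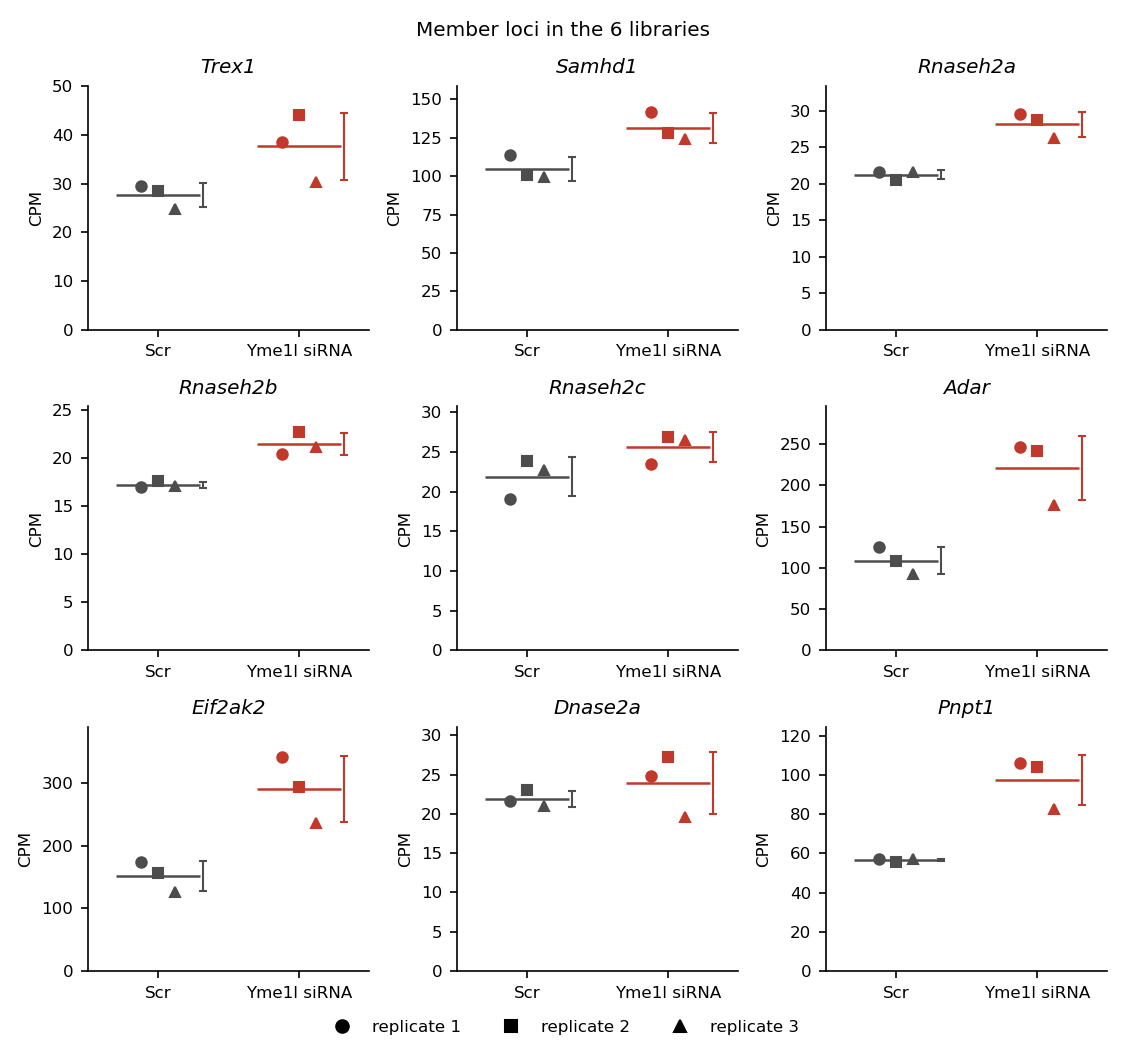
Level of each member locus in CPM (vertical axis from 0) in the 3 Scr and 3 Yme1l siRNA libraries. Points are libraries, with a marker shape for each replicate number, horizontal lines are group means and error bars are the SD. The treated points lie above the Scr points for 7 loci and overlap them for *Rnaseh2c* and *Dnase2a*.

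*Adar*, *Eif2ak2* and *Pnpt1*, whose products act on RNA, had the largest log2 fold changes of the 9. *Adar* encodes ADAR1, which converts adenosine to inosine in double-stranded RNA, so that MDA5 and PKR bind it less. It stood at 125, 108 and 93.0 CPM in Scr and at 246, 241 and 176 CPM in Yme1l siRNA. Every treated library was above every Scr library, and Yme1l siRNA 3 was the lowest of its group. The means were 108 ± 15.8 and 221 ± 39.2 CPM (SD, n = 3), and the log2 fold change of 1.03 ± 0.15 (SE) had an adjusted p of 0.000515 by edgeR's quasi-likelihood test with Benjamini-Hochberg adjustment. The gene lies at chr3:89715022-89753446 on the plus strand (GRCm38). Its exons share 1365 bases, 16.8% of its exon length, with *Chrnb2* on the opposite strand, and whether the counting used strand is not given. *Chrnb2* stood at 0.243 CPM in Scr and 0.737 CPM in Yme1l siRNA, far below *Adar*.

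*Eif2ak2* encodes PKR, a kinase that binds double-stranded RNA and halts translation by phosphorylating eIF2 alpha. Its levels were 174, 156 and 126 CPM in Scr and 342, 295 and 237 CPM in Yme1l siRNA. The groups did not overlap, and Scr 1 and Yme1l siRNA 1 were the highest of their groups and Scr 3 and Yme1l siRNA 3 the lowest. This rise, a log2 fold change of 0.94 ± 0.15 (SE), had an adjusted p of 0.000940 in the edgeR quasi-likelihood test after Benjamini-Hochberg adjustment. *Pnpt1* encodes PNPase, an exoribonuclease of mitochondria that degrades double-stranded mitochondrial RNA with the helicase SUV3. It stood at 57.0, 55.8 and 57.1 CPM in Scr and at 106, 104 and 82.7 CPM in Yme1l siRNA. The Scr libraries lay within 1.02-fold of each other, whereas the treated libraries spread over 1.28-fold, with Yme1l siRNA 3 the lowest. The log2 fold change of *Pnpt1* was 0.79 ± 0.10 (SE), and edgeR's quasi-likelihood test gave a Benjamini-Hochberg adjusted p of 0.000245.

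Promoter sequences are shown for these 3 loci, which had the largest log2 fold changes of the 9. None of the motif spellings given below was found in all 3 loci. RefSeq entries (GRCm38.p6) were found for 8 of the 9 members, with 11 start sites, and each window runs from 250 bases before to 50 bases after the start of transcription. *Rnaseh2b* had no entry. The core of the interferon-stimulated response element was searched on both strands as GAAANNGAAA. Among the members it was found only in *Eif2ak2*, beginning at base 19 of the transcribed part, and 3.44% of the 32851 promoters in the table held it. After the sequences were read, the spelling GAAANGAAA, with a gap of 1 base, was added. It was found in *Pnpt1*, beginning 66 bases before the start, and in 1 of the 3 *Adar* windows, beginning at base 29 of the transcribed part. It occurred in 3.17% of all promoters. Capitals mark the GAAANNGAAA match in the first sequence and the GAAANGAAA match in the others, which lie at chr17:78882523-78882822 (minus strand), chr11:29130494-29130793 (plus strand) and chr3:89730468-89730767 (plus strand), each written 5′ to 3′ along its gene.
Eif2ak2: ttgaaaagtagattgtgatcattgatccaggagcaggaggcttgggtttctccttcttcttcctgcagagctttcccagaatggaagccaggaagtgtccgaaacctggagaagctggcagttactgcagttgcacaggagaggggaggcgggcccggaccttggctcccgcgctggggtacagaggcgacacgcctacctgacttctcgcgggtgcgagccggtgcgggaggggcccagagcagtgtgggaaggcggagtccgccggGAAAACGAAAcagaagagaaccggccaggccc
Pnpt1: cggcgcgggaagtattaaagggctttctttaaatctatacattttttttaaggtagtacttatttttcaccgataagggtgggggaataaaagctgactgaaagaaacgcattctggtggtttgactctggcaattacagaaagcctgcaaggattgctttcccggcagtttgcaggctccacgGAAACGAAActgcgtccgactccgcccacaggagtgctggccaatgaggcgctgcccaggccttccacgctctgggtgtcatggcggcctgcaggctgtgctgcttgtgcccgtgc
Adar: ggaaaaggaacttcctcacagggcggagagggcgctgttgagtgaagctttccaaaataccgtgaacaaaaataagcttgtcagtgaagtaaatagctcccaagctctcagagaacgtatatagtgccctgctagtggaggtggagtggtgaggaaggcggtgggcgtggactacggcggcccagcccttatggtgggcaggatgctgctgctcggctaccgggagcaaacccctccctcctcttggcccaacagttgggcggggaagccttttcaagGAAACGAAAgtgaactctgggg

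A shortened spelling, GAAANNGAA, was also added after reading and was held by 8.56% of all promoters. Among the members it was found in *Eif2ak2*, where it overlaps the longer match, and in the same *Adar* window. The spelling TTCNNNGAA of the gamma-activated site was found in *Samhd1*, *Rnaseh2a*, *Eif2ak2* and the same *Adar* window, and in 8.30% of all promoters. The GC box GGGCGG was found in windows of *Trex1*, *Samhd1*, *Rnaseh2a*, *Adar*, *Dnase2a* and *Pnpt1* and in 35.7% of all promoters. These matches describe letters in a window, and which *Adar* start site was used in these cells was not tested.

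The other 6 members act on DNA, on its building blocks or on RNA-DNA hybrids. They had log2 fold changes between 0.13 and 0.45, and a difference from *Adar*, *Eif2ak2* and *Pnpt1* was not tested. The grouping by what the products act on was not set before the values were seen. *Trex1* encodes the main cytosolic DNA exonuclease. Its reads fall in a locus that joins *Atrip*, *Gm42641* and *Trex1* at chr9:109057933-109074124 on the minus strand, and all 1147 exon bases of *Trex1* lie within the 7152 exon bases of *Atrip*, which encodes a partner of the checkpoint kinase ATR. The reads of these genes cannot be told apart, so the values are those of the joint locus, and its level per exon length uses the exons of *Atrip* and *Trex1* only, since *Gm42641* could not be matched to GENCODE M21 by its identifier. It stood at 29.6, 28.4 and 24.9 CPM in Scr and at 38.6, 44.0 and 30.4 CPM in Yme1l siRNA. The groups did not overlap, but Yme1l siRNA 3 was near Scr 1. The joint locus rose by a log2 fold change of 0.45 ± 0.13 (SE), with an adjusted p of 0.0195 by edgeR's quasi-likelihood test and Benjamini-Hochberg adjustment. The call at the *Trex1* locus was lost in 3 of 6 fits with a library left out, with edgeR quasi-likelihood, Benjamini-Hochberg adjusted p of 0.0680 without Scr 3, 0.0586 without Yme1l siRNA 1 and 0.0543 without Yme1l siRNA 2, within a range of 0.00124 to 0.0680 over all alternatives.

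*Samhd1* encodes a triphosphohydrolase that breaks down deoxynucleotides. Its levels were 114, 101 and 99.8 CPM in Scr and 142, 128 and 124 CPM in Yme1l siRNA. The lowest treated library was above the highest Scr library. *Samhd1* rose 1.25-fold, a log2 fold change of 0.32 ± 0.08 (SE), with an adjusted p of 0.0102 in edgeR's quasi-likelihood test with Benjamini-Hochberg adjustment.

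The RNase H2 complex removes ribonucleotides from DNA and cleaves RNA-DNA hybrids, with *Rnaseh2a* encoding its catalytic subunit and *Rnaseh2b* and *Rnaseh2c* the subunits that hold it in place. *Rnaseh2a* stood at 21.6, 20.5 and 21.6 CPM in Scr and at 29.5, 28.7 and 26.2 CPM in Yme1l siRNA. *Rnaseh2b* stood at 17.0, 17.6 and 17.1 CPM in Scr and at 20.5, 22.8 and 21.2 CPM in Yme1l siRNA. For both, the groups did not overlap and the Scr libraries were close together. *Rnaseh2a* rose by a log2 fold change of 0.41 ± 0.08 (SE; edgeR quasi-likelihood test, Benjamini-Hochberg adjusted p = 0.00219). *Rnaseh2b* rose by 0.32 ± 0.08 (SE; edgeR quasi-likelihood test, Benjamini-Hochberg adjusted p = 0.00782). The *Rnaseh2a* locus also carries the name *AC163703.1* (*Gm49661* in GENCODE M21), all of whose 339 exon bases lie within those of *Rnaseh2a*, and 5.04% of the exon bases of *Rnaseh2a* overlap *Prdx2* on the opposite strand. *Prdx2*, an antioxidant enzyme, moved the other way, from 280 to 160 CPM on average, and was far above *Rnaseh2a* in both groups. If strand was not used in counting, reads in the shared bases cannot be told apart, and the level of *Rnaseh2a* may include reads of *Prdx2*.

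*Rnaseh2c* stood at 19.1, 23.8 and 22.7 CPM in Scr and at 23.5, 26.9 and 26.5 CPM in Yme1l siRNA. Here the groups overlapped, since Scr 2 was above Yme1l siRNA 1. The log2 fold change of 0.23 ± 0.10 (SE) was not called, with an adjusted p of 0.0828 by edgeR's quasi-likelihood test with Benjamini-Hochberg adjustment. Its 95% confidence interval ended at 0.47 on the log2 scale, so a rise of the size seen for *Rnaseh2a* or *Rnaseh2b* lies within it, and a difference between the 3 subunits was not tested. Exons of *Rnaseh2c* share 426 bases, 24.8% of its exon length, with *Kat5* on the opposite strand, which was at 25.8 CPM in Scr and 28.1 CPM in Yme1l siRNA. If strand was not used in counting, reads of these genes cannot be told apart.

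Within each library the RNase H2 subunits were compared per exon length, as RPKM (CPM divided by exon length in kilobases). The ratio of *Rnaseh2a* to *Rnaseh2b* RPKM was 2.27, 2.07 and 2.25 in Scr and 2.56, 2.24 and 2.2 in Yme1l siRNA. The ratio of *Rnaseh2b* to *Rnaseh2c* RPKM was 0.244, 0.203 and 0.206 in Scr and 0.239, 0.233 and 0.219 in Yme1l siRNA. Both ratios overlapped between the groups.

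*Dnase2a* encodes the acid nuclease that digests DNA in lysosomes. It stood at 21.6, 23.0 and 21.0 CPM in Scr and at 24.8, 27.3 and 19.6 CPM in Yme1l siRNA. Yme1l siRNA 1 and 2 were above the Scr libraries and Yme1l siRNA 3 was below them. The log2 fold change was 0.13 ± 0.12 (SE), with a 95% confidence interval from −0.15 to 0.40 and an adjusted p of 0.388 by edgeR's quasi-likelihood test with Benjamini-Hochberg adjustment. Without Yme1l siRNA 3 the log2 fold change was 0.25 and *Dnase2a* was called, at an adjusted p of 0.0372 in the same edgeR quasi-likelihood test with Benjamini-Hochberg adjustment (range over the alternatives 0.0372 to 0.840), so that library decides the call. *Mast1* on the opposite strand overlaps 30% of the exon bases of *Dnase2a* but had 0.0171 CPM in Scr and 0.00767 CPM in Yme1l siRNA.

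**Figure D2:**
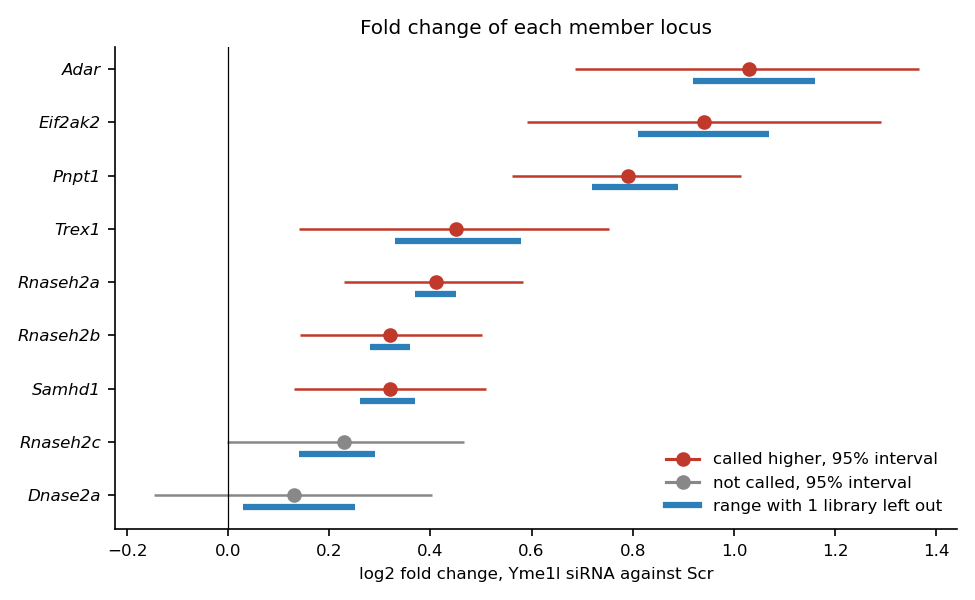
Log2 fold change of each member locus, Yme1l siRNA against Scr (horizontal axis), with its 95% confidence interval and, in blue, the range over the 6 fits that each leave out 1 library. *Adar*, at 1.03, is the highest and *Dnase2a*, at 0.13, the lowest. The intervals of *Rnaseh2c* and *Dnase2a* reach below 0.

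The order of levels between members was read only per exon length. In Scr, mean RPKM was highest for *Eif2ak2*, at 29.7 ± 4.71 (SD, n = 3), followed by *Pnpt1* at 16.1 ± 0.216, *Adar* at 13.4 ± 1.95, *Rnaseh2c* at 12.7 ± 1.45 and *Samhd1* at 11.5 ± 0.821. Lower RPKM means were those of *Rnaseh2a* at 6.05 ± 0.192, *Dnase2a* at 4.06 ± 0.190, the *Trex1* locus at 3.86 ± 0.343 and *Rnaseh2b* at 2.75 ± 0.0526. The Scr libraries overlapped between *Adar* and *Rnaseh2c*, between *Rnaseh2c* and *Samhd1* and between *Dnase2a* and the *Trex1* locus, so these neighbours did not differ beyond their spread. In Yme1l siRNA, *Eif2ak2* reached 57.0 ± 10.3 RPKM, *Pnpt1* 27.8 ± 3.72 and *Adar* 27.2 ± 4.83, whereas *Rnaseh2c* stood at 15 ± 1.08 and *Samhd1* at 14.3 ± 1.03. The deposited group FPKM values, made by the authors' program from pooled libraries, also put *Eif2ak2* first in both groups, at 36.9 in Scr and 74.5 in Yme1l siRNA, but placed *Samhd1*, at 35.5 FPKM in Scr, above *Pnpt1*, at 21.4. The order of the others thus differed between these scales, and the reason was not tested.

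**Figure D3:**
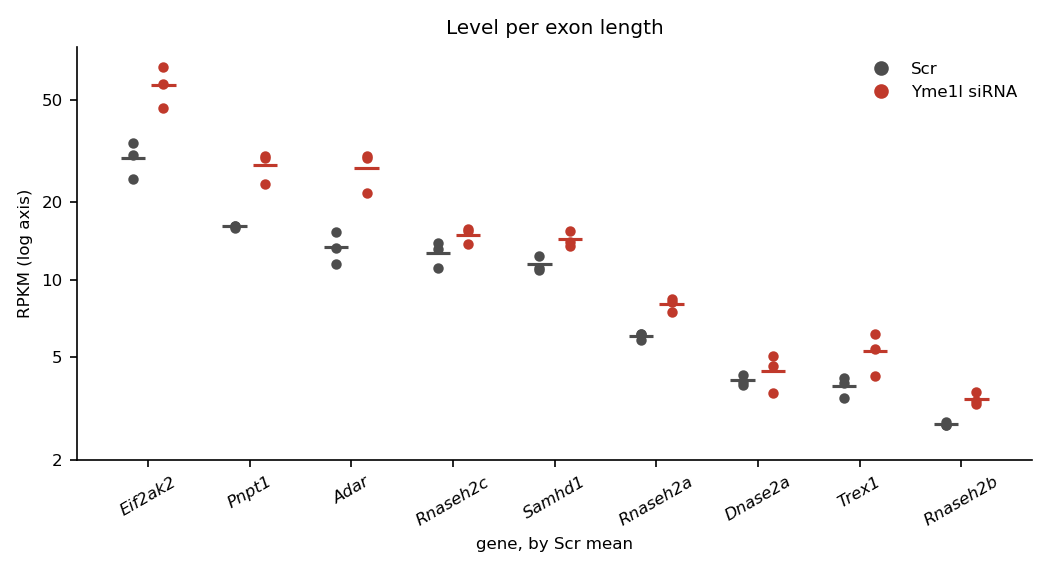
Level of each member per exon length in RPKM (log axis), ordered by the Scr mean. Points are the 3 libraries of each group and lines are means. *Eif2ak2* is the highest, at 29.7 RPKM in Scr and 57.0 in Yme1l siRNA, and *Rnaseh2b* the lowest, at 2.75 and 3.44.

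The members were then read library by library beside *Yme1l1* and *Isg15*. Yme1l siRNA 3 was the lowest treated library for 7 of the 9 members and for 6 of the 7 called. The exceptions were *Rnaseh2b* and *Rnaseh2c*, for which Yme1l siRNA 1 was lowest. As log2 CPM minus the Scr mean, *Adar* stood at 1.19, 1.16 and 0.70 in Yme1l siRNA 1, 2 and 3, and *Isg15* at 2.30, 2.33 and 1.2. *Eif2ak2* stood at 1.18, 0.97 and 0.65 on the same scale, and *Pnpt1* at 0.90, 0.88 and 0.54. *Yme1l1* was at −2.41, −2.84 and −1.91. The library with the smallest fall of the targeted gene thus also had the smallest rise of these 3 members over the Scr mean. Scr 3 was itself below that mean for *Adar*, at −0.21, *Eif2ak2*, at −0.26, and *Isg15*, at −1.15, but not for *Pnpt1*, at 0.01. The order of rises over the same-numbered Scr library was not tested. With 3 treated libraries no correlation was computed, and the part of knockdown strength in the members' levels was not tested. Among the Scr libraries, *Isg15* was highest in Scr 1 and lowest in Scr 3, and so were *Adar*, *Eif2ak2*, *Trex1* and *Samhd1*, whereas *Pnpt1* and *Rnaseh2b* varied by at most 1.04-fold there. A chi-squared statistic per degree of freedom, larger where libraries differ more, was 9.99 between Scr 1 and Scr 2. Scr 3 stood apart, at 73.8 from Scr 1 and 57.7 from Scr 2. Between Yme1l siRNA 1 and 2 it was 27.8, and Yme1l siRNA 3 was at 48.9 and 71.6 from them.

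**Figure D4:**
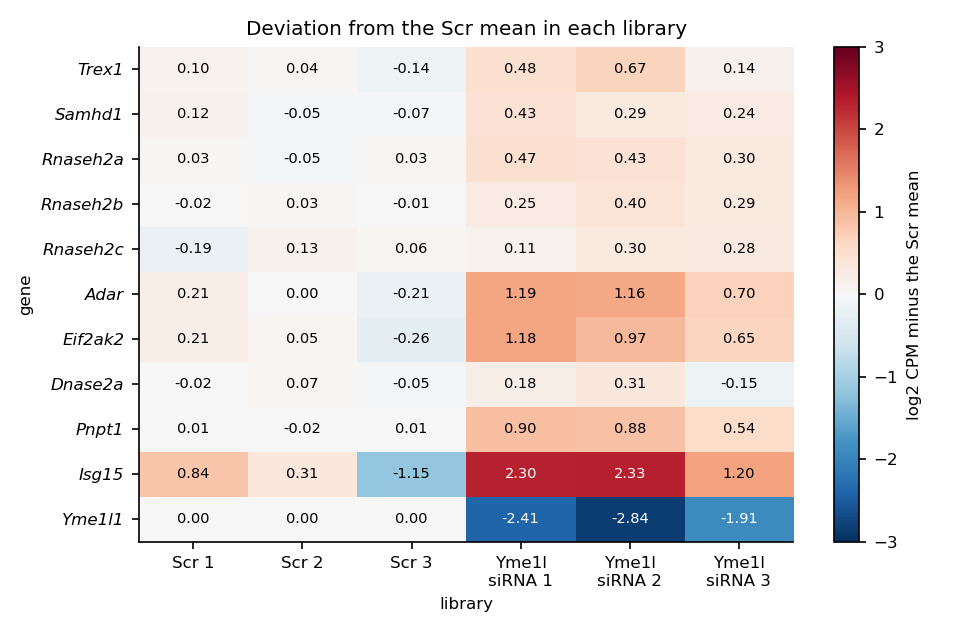
Log2 CPM minus the Scr mean for each member, *Isg15* and *Yme1l1* (rows) in the 6 libraries (columns), with red above and blue below the Scr mean. *Adar*, *Eif2ak2*, *Pnpt1* and *Isg15* are higher in Yme1l siRNA 1 and 2 than in Yme1l siRNA 3.

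For each called member, the single-name loci with the nearest profile over the 6 libraries were found by the root mean square difference in log2 CPM minus the Scr mean, among 9483 loci. The nearest to *Adar* was *Emp1*, at 0.037, followed by *Fbxw17* at 0.060. *Eif2ak2* was nearest to *Hs6st2*, at 0.079, and then to *Emp1*, at 0.085. *Pnpt1* was nearest to *Sgk1*, at 0.037, and *Mlkl*, at 0.042. The nearest loci of the other called members were *Rab10os* and *Mob3a* for the *Trex1* locus, *Frs2* and *Ptpre* for *Samhd1*, *Atp2a2* and *Zdhhc6* for *Rnaseh2a*, and *Mocs2* and *Fam96a* for *Rnaseh2b*, with differences between 0.016 and 0.048.

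Genes that work beside the members were counted in 7 lists, with 28.4% of all loci tested called higher and 29.6% lower as the background. In the list of sensors of the members' ligands and their adaptors, 7 of 10 tested were called higher and 0 lower (0 also at an unadjusted p under 0.05 in edgeR, and with DESeq2 or limma-voom), with a median log2 fold change of 1.58 beside 0.41 for the members. Of these 10, *Tmem173*, which encodes STING, and *Mavs* are adaptors, and neither was called. The other gene not called was the sensor *Aim2*, with a log2 fold change of −0.62 ± 0.62 (SE). *Dhx58*, which encodes the RNA-binding regulator LGP2, stood at 29.8, 21.3 and 11.5 CPM in Scr and at 132, 156 and 56.2 CPM in Yme1l siRNA. Its treated libraries were all above Scr, with Yme1l siRNA 3 the lowest, as for *Adar*. *Tlr9*, an endosomal DNA sensor, rose by a log2 fold change of 2.55 ± 0.30 (SE), but from only 10, 10 and 11 counts in Scr. Other DNA nucleases and end-processing genes had 9 of 12 called higher and 2 lower, with a median of 0.59. The 2 lower were *Pld3*, from 124 to 66.1 CPM on average, and *Dnase1l1*, from 17.8 to 8.38 CPM, both named after their values were seen. *Dna2*, a nuclease-helicase of replication, rose from 4.94, 4.79 and 7.66 CPM to 24.6, 24.9 and 27.5 CPM. *Dnase1l3*, a secreted DNase, was called higher, but with 4 to 12 counts per Scr library, overlapping groups and a call lost in 4 of 6 fits with a library left out and with DESeq2.

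The lists around *Adar* and *Eif2ak2* held calls in both directions. Of A-to-I editing and double-stranded RNA-binding genes, 4 of 11 tested were called higher and 4 lower, with a median of 0.17, while *Adar* rose. *Adarb1*, the other catalytically active A-to-I editor of mRNA that was tested, fell from 193, 190 and 177 CPM to 113, 103 and 131 CPM (log2 fold change −0.69 ± 0.10, SE). *Prkra*, which encodes the PKR activator PACT, fell from 24.9, 26.7 and 24.0 CPM to 13.2, 12.3 and 13.0 CPM, while *Eif2ak2* rose. The list around PKR, of eIF2 alpha kinases, eIF2 and eIF2B subunits and PKR regulators, had 10 of 16 genes called higher and 3 lower, with a median of 0.26. Of its 8 subunits of eIF2, the target of PKR, and of its exchange factor eIF2B, 6 were called higher and 2 were not called, and these groupings within the list were made after the values were seen. With a library left out, the call of *Eif2s2* was lost in 5 of 6 fits and that of *Eif2b3* in 3 of 6. *Ppp1r15a* and *Ppp1r15b*, phosphatase subunits that reverse the phosphorylation set by PKR, rose by log2 fold changes of 1.35 ± 0.16 and 0.76 ± 0.07 (SE). Of the 3 other kinase genes, *Eif2ak3* and *Eif2ak4* were called lower, with log2 fold changes of −0.57 and −0.65, and *Eif2ak1*, at 0.13, was not called.

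Around *Pnpt1*, a list of genes for processing, stabilizing and decay of mitochondrial RNA was counted. It had 6 of 9 genes called higher and 0 lower in edgeR, DESeq2 and limma-voom, with a median of 0.33. In edgeR, 1 was lower at an unadjusted p under 0.05, and 2 were called lower without Yme1l siRNA 3. *Trmt10c*, a subunit of mitochondrial RNase P, rose by 0.99 ± 0.07 and *Lrpprc*, a binder of mitochondrial mRNA, by 0.66 ± 0.11 on the log2 scale (SE). *Supv3l1*, which encodes SUV3, the helicase that works with PNPase, was called higher, at 0.30, and *Grsf1* and *Rexo2*, also linked to decay, were not called, at −0.16 and −0.17. These 3 were named after their values were seen, and the other called loci, *Elac2*, *Mtpap* and the locus that joins *Fastkd5* and *Ubox5*, hold genes of processing or polyadenylation, though reads of *Fastkd5* and *Ubox5* cannot be told apart. RNA decay and cleavage genes had 10 of 22 called higher and 3 lower, with a median of 0.27, and the exosome genes *Dis3* and *Exosc2* rose by 0.86 ± 0.09 and 0.83 ± 0.08 (SE). For the RNA-DNA hybrid partners of RNase H2, 2 of 7 were called higher and 0 lower in edgeR and DESeq2, with a median of 0.00. The count lower was 1 with limma-voom and at an unadjusted p under 0.05 in edgeR. Without Yme1l siRNA 3, edgeR called 1 of these partners higher and 3 lower. *Pcna*, the replication clamp, rose by 0.56 ± 0.07 (SE), and *Aqr*, an RNA-DNA helicase, by 0.27 ± 0.09 (SE), a call lost in 4 of 6 fits with a library left out.

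**Figure D5:**
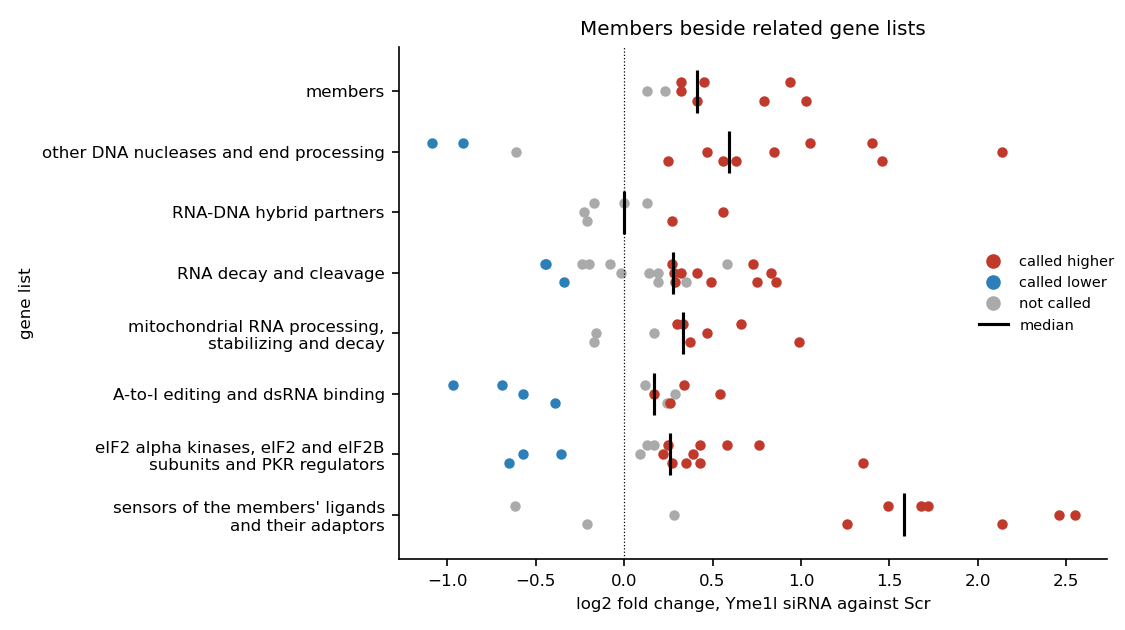
Log2 fold change, Yme1l siRNA against Scr (horizontal axis), of the 9 members and of the tested genes of 7 related lists (rows). Points are genes, coloured by call, and black bars are medians, which are 0.41 for the members and 1.58 for the list of sensors and their adaptors.

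Marker genes moved with the treatment as well, beside 28.4% of all loci tested called higher and 29.6% lower. Fibroblast markers summed to 32336, 28693 and 25254 CPM in Scr and to 17539, 17335 and 14606 CPM in Yme1l siRNA. Of 8 tested, 0 were called higher and 7 lower in edgeR, DESeq2 and limma-voom, with 0 higher also at an unadjusted p under 0.05, and the most abundant was *Col1a1*. *Thy1*, a common fibroblast marker, had at most 1 count in any library. Macrophage markers summed to 208, 198 and 193 CPM in Scr and to 286, 273 and 279 CPM in Yme1l siRNA, mostly from *Csf1r*, the 1 of 4 tested that was called higher, and *Adgre1* was at 0 in all 6 libraries. Endothelial markers summed to at most 7.81 CPM in any library, with *Tek* the most abundant and *Emcn* at 0 throughout. Of these, 2 of 3 tested were called higher, *Tek* and *Kdr*, the latter from only 3, 9 and 7 counts in Scr. Epithelial markers summed to at most 1.33 CPM, led by *Krt8*, the only 1 tested. It was called higher, but from only 1 count in each Scr library. The part of these shifts in the members' values was not tested, and in bulk RNA a change in the share of cells and a change in RNA per cell cannot be told apart.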

How the data were processed

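The authors mapped reads to GRCm38 with HISAT2 2.0.4, assembled transcripts with StringTie 1.3.3 and compared groups with Cuffdiff 2.2.1. The deposited counts are raw reads per locus, and the program that counted them is not given in the sources used here. The authors' comparison table gives FPKM per group with libraries pooled, and these deposited values were used only as group levels. Its fold changes, p-values and q-values were not used. All libraries were mapped from labels and column names, with 0 unmapped per-sample columns.

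From the counts, edgeR 4.0.16 (R 4.3.3) computed TMM factors and a quasi-likelihood test with Benjamini-Hochberg adjustment over all loci kept by filterByExpr (minimum 10 counts, 15 in total), with a threshold of 0.05 and no covariates. The biological coefficient of variation was 0.131. Standard errors are the log2 fold change over the root of F. RPKM used the joined exon length of GENCODE M21. Profiles used log2(CPM + 0.5). Alternatives were DESeq2 1.42.0, limma-voom (limma 3.58.1), RLE and upper-quartile factors, filters of at least 1 count and a mean of at least 50 counts, a threshold of 0.01, the replicate number as a block, and each library left out. The scripts were tested on simulated data, with recovery required only above a minimum expression. Tables and figures used Python 3.11.15, pandas 2.3.3, numpy 2.4.6, scipy 1.17.1 and matplotlib 3.10.9.

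The genes named were the members, *Yme1l1*, *Ifnb1* and *Isg15*, the 2 called genes of largest absolute log2 fold change in each list, genes sharing a member's locus, and, for each called member, the 2 single-name loci nearest in profile, among loci averaging 3 or more in log2 CPM. Overlapping genes, markers and genes said to be so were named outside this rule. The members and lists were chosen with earlier results of these data known. Looser motif spellings were added after the sequences were read. In the lists, *Fastkd5*, *Adat3* and *S100a4* were counted at loci that join them with *Ubox5*, with *Scamp4*, and with *S100a3* and *Gm42674*.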

Additional observations from a re-analysis of the deposited data

How the results depend on the processing

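*Adar*, *Eif2ak2*, *Pnpt1*, *Rnaseh2a* and *Rnaseh2b* were called higher under each of 14 alternatives, and each of the 9 members had a positive log2 fold change in all of them. At an adjusted p under 0.01, 5 members were called higher, as were 2949 of all 14499 loci tested, with 3225 lower, and *Trex1* (log2 fold change 0.45) and *Samhd1* (0.32) were not, by construction of the stricter threshold. That threshold also reduced the genes called higher to 1 of the RNA-DNA hybrid partners, 6 of RNA decay and cleavage, 2 of A-to-I editing and 6 of the list of eIF2 alpha kinases, eIF2 and eIF2B subunits and PKR regulators. With limma-voom, 1 RNA-DNA hybrid partner was called lower, and the cause was not tested.

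With a library left out, 6 to 8 members were called higher and their median log2 fold change ranged from 0.34 to 0.45, while 3451 to 4133 of all loci were called higher and 3616 to 4312 lower. The log2 fold change of *Trex1* ranged from 0.33 to 0.58, with its call lost without Scr 3, Yme1l siRNA 1 or Yme1l siRNA 2, and that of *Dnase2a* from 0.03 to 0.25, called only without Yme1l siRNA 3. In the same fits, the RNA-DNA hybrid partners had 1 to 3 genes called higher (1 without Scr 1, Scr 2, Yme1l siRNA 1 or Yme1l siRNA 3) and 0 to 3 lower (3 without Yme1l siRNA 3), mitochondrial RNA processing and decay 0 to 2 lower (2 without Yme1l siRNA 3), A-to-I editing 2 to 4 higher (2 without Scr 1, Scr 2 or Yme1l siRNA 1), and the eIF2 and PKR list 6 to 9 higher (6 without Scr 1 or Yme1l siRNA 1). These fits have fewer samples.

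Replicate numbers were shared between the groups, but the correlations of deviations of same-numbered libraries were 0.0905, 0.167 and 0.255, not all over 0.1, so the numbers were not taken as pairs. Scr 1 correlated more with Yme1l siRNA 2, at 0.135, than with its own number. The other pairs of unlike numbers lay between −0.24 and −0.0412, so these values do not settle whether the libraries were paired. With the replicate number as a block, 4227 loci were called higher and 4460 lower, beside 4123 and 4288 without it, and 8 members were called, with *Rnaseh2c* (log2 fold change 0.23) added, at an adjusted p of 0.0248 by edgeR's quasi-likelihood test with Benjamini-Hochberg adjustment (range over its alternatives 0.0248 to 0.292). The block also called 2 RNA-DNA hybrid partners and 1 gene of the list of sensors and adaptors lower.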
